A study of Mus musculus with 7 samples.

Results

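Motile cilia genes were followed in contused mouse spinal cord as a set of 60 members. Members were the rows of the count table whose protein-coding mouse symbol is *Cfap*, *Dnah*, *Rsph*, *Drc* or *Tekt* followed directly by a number, together with *Foxj1*, provided that the mean over the 7 libraries reached 10 counts. They were 60 of 63 genes with such a symbol and 60 of 21965 rows in all. The rule used no difference between genotypes. *Rsph14*, with a mean of 10 counts, and *Cfap58*, with 10.4, lay just inside the limit, while *Tekt3* with 2.29 counts, *Rsph6a* with 1.29 and *Cfap97d1* with 0 fell outside it. Member means ran up to 4648 counts, reached by *Cfap36*.

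A motile cilium beats through its axoneme, a ring of doublet microtubules around a central pair. Outer and inner dynein arms, whose motors are the *Dnah* heavy chains, slide the doublets, while radial spokes, the central apparatus and the nexin-dynein regulatory complex turn sliding into a beat, and tektins with other proteins inside the doublets stiffen them. In the cord such cilia are carried by ependymal cells, which line the central canal and move cerebrospinal fluid, and FOXJ1 is the transcription factor that switches on the motile cilia program.

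RNASeq addressed how loss of BMAL1, an activator of the molecular clock encoded by *Arntl*, changes the transcriptome of the injured cord. Mice received a moderate T9 contusion (50 kdyn, 400 to 600 µm displacement) and a 5 mm segment at the epicenter was taken at dpi 3. All mice were injured, so no uninjured level is given here. Group *Bmal1*-/- held 3 mice (2 F, 1 M) homozygous for the germ-line *Arntl* tm1Bra allele, on a C57Bl/6J background. They were bred from heterozygous crosses, and every cell type carries the deletion. Group WT held 4 C57Bl/6J mice (2 F, 2 M), with 1 littermate of the knockouts and the rest bought. The methods describe bought controls as matched for age and sex, but the sex ratio differed between the groups used here. Animals were injured at 8 to 10 weeks of age and tissue was collected at ZT 3 to 5. Each mouse gave 1 poly-A library and no mice were pooled.

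Libraries held 38529644 to 44096737 counts, and levels are given as CPM, each count relative to its library's TMM-scaled total. *Arntl* itself was counted at 22.5 to 24.2 CPM in libraries labelled *Bmal1*-/- and at 11.9 to 15.3 CPM in WT, a log2 fold change of 0.77 (SE 0.10, adjusted p = 0.0155, edgeR). The targeted gene was thus higher where the label gives it as deleted, but these are counts of the whole gene, which do not show whether the deleted part was read. *Nr1d1* and *Dbp*, clock genes that BMAL1 activates, were at 5.31 to 7.28 against 29.2 to 36.8 CPM and at 7.80 to 8.83 against 25.3 to 39.3 CPM, and both fell (log2 fold changes -2.51 and -1.85, adjusted p = 0.000456 and 0.00328, edgeR). *Cry1*, a clock repressor, rose, at 40.2 to 44.8 against 12.9 to 15.4 CPM (1.58, adjusted p = 0.000456, edgeR). Higher or lower always refers to how libraries were labelled, *Bmal1*-/- set against WT. Over the 15743 genes that passed edgeR's filter on low counts, WT replicate 3 was the highest of the 7 libraries for 33.9% and the lowest for 35.9%. Next came *Bmal1*-/- replicate 3, highest for 26.5% and lowest for 26.5%. Both stand apart, and member results that rest on them are given with each library's value. Both came from males, as did WT replicate 4, and the other libraries came from females. *Bmal1*-/- replicate 3 was thus the only male of its group, and leaving it out leaves females alone there.

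The label of ependymal cells was checked against 18 ependymal markers. *Foxj1* was counted at 36.9 to 46.7 CPM. Ependyma-restricted *Ccdc153* had 34 to 83 counts per library and *Tmem212* 19 to 52, about 1 CPM each, and *Sntn*, which encodes a protein of the ciliary tip, had 0 to 5. The restricted markers were thus sparse, and the most abundant markers of the list (*Cd24a*, *Tm4sf1*, *Pltp*, *Sox2* and *Foxj1*) are largely genes that other cells of an injured cord also use. Of 10 markers of the choroid plexus, the other ciliated epithelium of the nervous system, 7 passed the filter and the list summed to 316.5 to 443.5 CPM, most of it from *Enpp2*, which other cells of the cord also express. Its defining markers *Ttr*, at 0 to 8 counts, and *Otx2*, at 0 in all 7 libraries, did not pass, while *Slc4a5* was at 5.85 to 6.57 CPM in libraries labelled *Bmal1*-/- and 1.07 to 2.90 CPM in WT. In bulk tissue, fewer cells of a type and less RNA per cell cannot be told apart.

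Upstream sequences were searched because RFX factors and FOXJ1 drive cilia genes through short promoter motifs, and BMAL1 binds the E-box. RefSeq upstream windows of 250 bases (GRCm38.p6) were at hand for 48 of the 60 members, in 55 windows, and both strands were read. The X-box half-site GTTGCC, part of the site that RFX factors bind, was in 18 member windows (32.7%) against 10.4% of all 32851 windows of this length. The whole X-box, GTTNCC and GGNAAC with 2 bases between them, was in 1 member window, that of *Cfap298* (1.82% against 0.374%). A forkhead motif, TGTTTAC, was in 3 windows, those of *Cfap20*, *Cfap43* and *Dnah17* (5.45% against 3.17%). The E-box CACGTG was in 3 windows, those of *Cfap20*, *Cfap57* and *Drc3* (5.45% against 6.02%), so members carried it at about the share of all genes. Letters of a half-site lie within the whole X-box, so these counts are not independent.

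4 of these windows are shown with the matched motifs in capitals, 5′ to 3′ in the direction of the gene, ending at the base before the RefSeq start and free of annotated exons. *Cfap20* is shown for holding all 3 kinds of short motif, *Tekt1* and *Tekt2* for their paired X-box half-sites, and *Dnah12*, 1 of the members with the largest fold changes, for having none of them.
Cfap20, chr8:95434870-95435119, minus strand: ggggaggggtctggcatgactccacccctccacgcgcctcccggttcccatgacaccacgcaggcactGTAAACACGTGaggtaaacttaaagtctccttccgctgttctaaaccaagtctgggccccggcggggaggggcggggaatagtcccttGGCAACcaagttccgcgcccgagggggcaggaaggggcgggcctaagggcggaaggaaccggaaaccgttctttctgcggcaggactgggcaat
Tekt1, chr11:72361883-72362132, minus strand: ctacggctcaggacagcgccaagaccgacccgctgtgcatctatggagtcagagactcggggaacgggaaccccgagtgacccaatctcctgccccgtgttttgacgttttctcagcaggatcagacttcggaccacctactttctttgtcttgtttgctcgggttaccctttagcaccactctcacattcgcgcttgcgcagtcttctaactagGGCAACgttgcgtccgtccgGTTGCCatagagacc
Tekt2, chr4:126325689-126325938, minus strand: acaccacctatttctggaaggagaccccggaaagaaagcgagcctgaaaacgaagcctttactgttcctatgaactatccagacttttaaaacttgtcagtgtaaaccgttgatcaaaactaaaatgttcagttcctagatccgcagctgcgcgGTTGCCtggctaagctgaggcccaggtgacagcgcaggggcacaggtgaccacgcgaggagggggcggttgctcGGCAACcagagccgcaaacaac
Dnah12, chr14:26691304-26691553, plus strand: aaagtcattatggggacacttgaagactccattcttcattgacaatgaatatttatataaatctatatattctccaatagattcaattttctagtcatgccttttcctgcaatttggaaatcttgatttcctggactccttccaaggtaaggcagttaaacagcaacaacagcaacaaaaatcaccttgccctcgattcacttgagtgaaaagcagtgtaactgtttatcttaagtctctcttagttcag

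In *Cfap20* the forkhead match, from 182 to 176 bases before the start, and the E-box, from 177 to 172, share bases, so the run in capitals is a pair of overlapping motifs. Its half-site began 94 bases before the start. The half-sites of *Tekt1* began 35 and 15 bases before the RefSeq start, and those of *Tekt2* 96 and 22. In the GENCODE annotation *Tekt1* starts further upstream, at 72362442, so its window lies within the annotated gene. *Dnah12* starts there at 26693274, downstream of its window and apart from it. The windows of *Cfap20* and *Tekt2* end right before the annotated start, so the 4 windows are not placed alike. GC content was 63.2% in the *Cfap20* window and 35.6% in that of *Dnah12*. RNA levels of *Cfap20*, *Tekt1* and *Tekt2* are given with their groups below, and all 3 had overlapping genotypes.

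Against genotype, the motile cilia genes showed small differences. All 60 members passed the filter on low counts, and none passed an adjusted p of 0.05 in edgeR's quasi-likelihood test, where 1.57% of all genes tested passed (0.654% higher and 0.915% lower). At an unadjusted p under 0.05 there were 8 members (13.3%), 5 higher (8.33%) and 3 lower (5%), against 20.9% of all genes, 8.64% higher and 12.2% lower. With DESeq2, 4 members passed (6.67%), namely *Cfap36* and *Dnah12* higher and *Cfap100* and *Cfap43* lower, against 9.62% of all genes (3.81% higher and 5.81% lower). The shares of members called lay under those of all genes by each of these rules, but they rest on few calls. Members were also measured less precisely, with the 95% interval within 0.5 of 0 for 33.3% of them against 50.6% of all genes. What this adds to the lower shares was not tested.

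Fold changes of the members leaned to the positive side. The median log2 fold change was 0.11 over the 60 members, from -0.61 to 0.76, beside -0.01 over all genes tested, and 45 members (75%) were above 0 against 48.9% of all genes. Most were small, since 52 members (86.7%) lay within 0.5 of 0 on the log2 scale, beside 84.7% of all genes. For 53 members (88.3%) the whole 95% interval lay within 1 of 0, so that a doubling or halving was outside it, as for 80.1% of all genes. The other members were *Dnah14*, *Dnah12*, *Tekt5*, *Cfap221*, *Dnah8*, *Cfap157* and *Cfap206*. An interval within 0.5 of 0 was reached by 20 members (33.3%) against 50.6% of all genes, and smaller differences of the rest were not detectable with 3 and 4 mice.

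**Figure D1:**
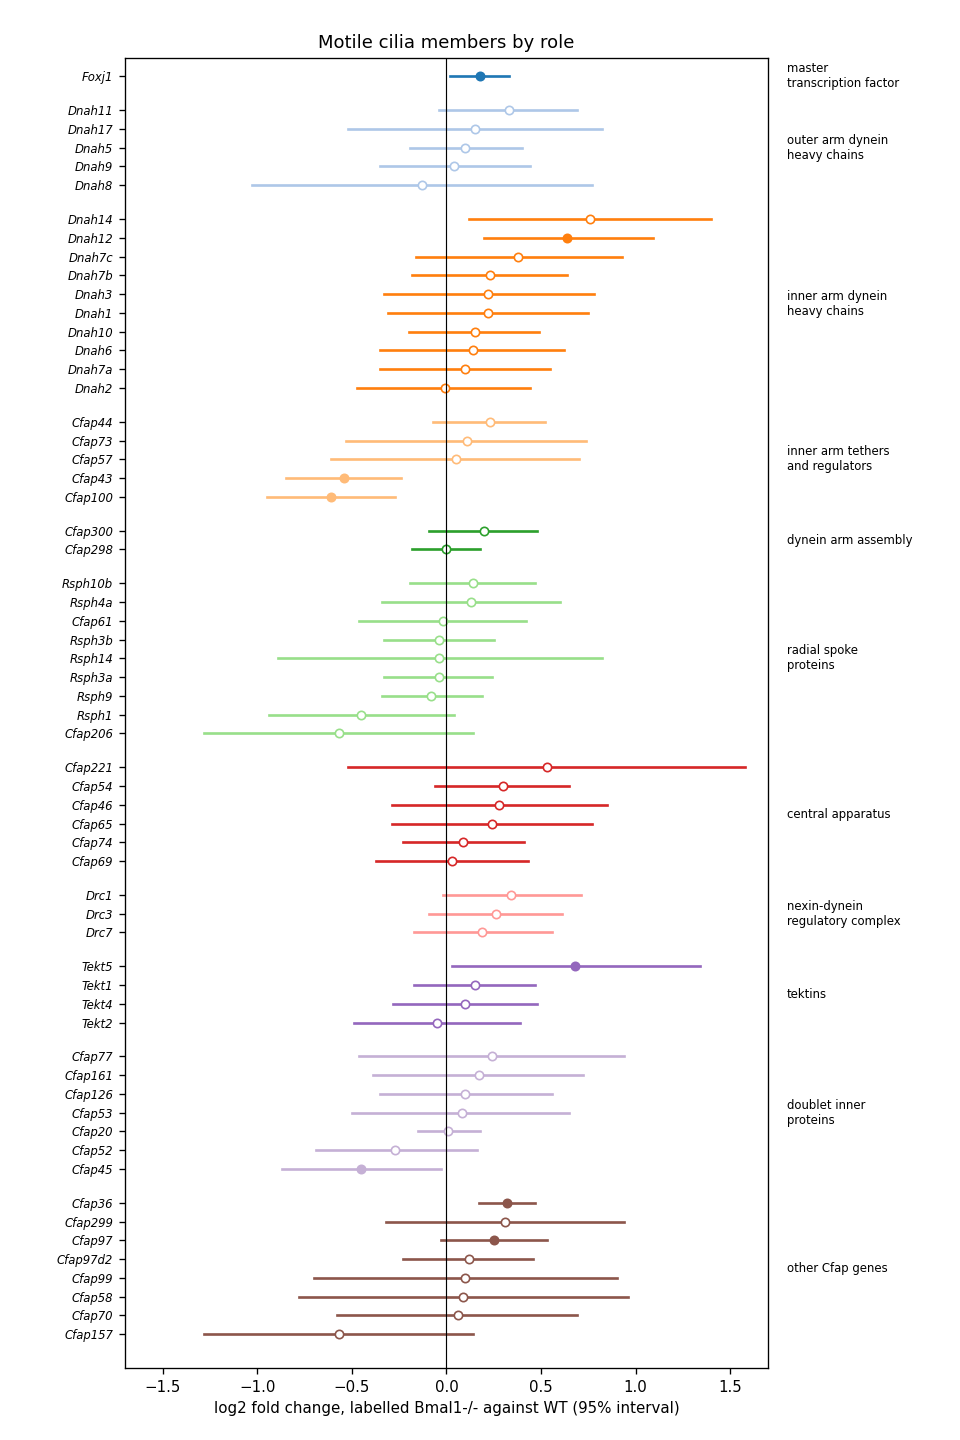
Log2 fold change of each of the 60 members (horizontal axis, libraries labelled *Bmal1*-/- against WT) with its 95% interval, grouped and coloured by role; filled points are members whose genotypes do not overlap and open points those that overlap. Points crowd near 0, from -0.61 for *Cfap100* to 0.76 for *Dnah14*, and the narrowest intervals belong to abundant members such as *Cfap36*, *Foxj1* and *Cfap20*.

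The transcription factor that heads the program was slightly higher. *Foxj1* (ENSMUSG00000034227, chromosome 11 of GRCm38, 116330704 to 116335399) was at 46.7, 40.8 and 43.2 CPM in libraries labelled *Bmal1*-/- and at 36.9, 37.6, 39.9 and 39.5 CPM in WT. Each library labelled *Bmal1*-/- was above each WT library, though the gap between the nearest was 40.8 against 39.9 CPM. The log2 fold change was 0.18 (SE 0.07, 95% interval 0.02 to 0.33), and it did not pass (adjusted p = 0.203, edgeR). No overlap in either direction was seen for 8 members (13.3%), against 26.9% of all genes tested, with *Foxj1*, *Cfap36*, *Cfap97*, *Dnah12* and *Tekt5* higher (8.33% of members against 13.4% of all genes) and *Cfap100*, *Cfap43* and *Cfap45* lower (5% against 13.5%).

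**Figure D2:**
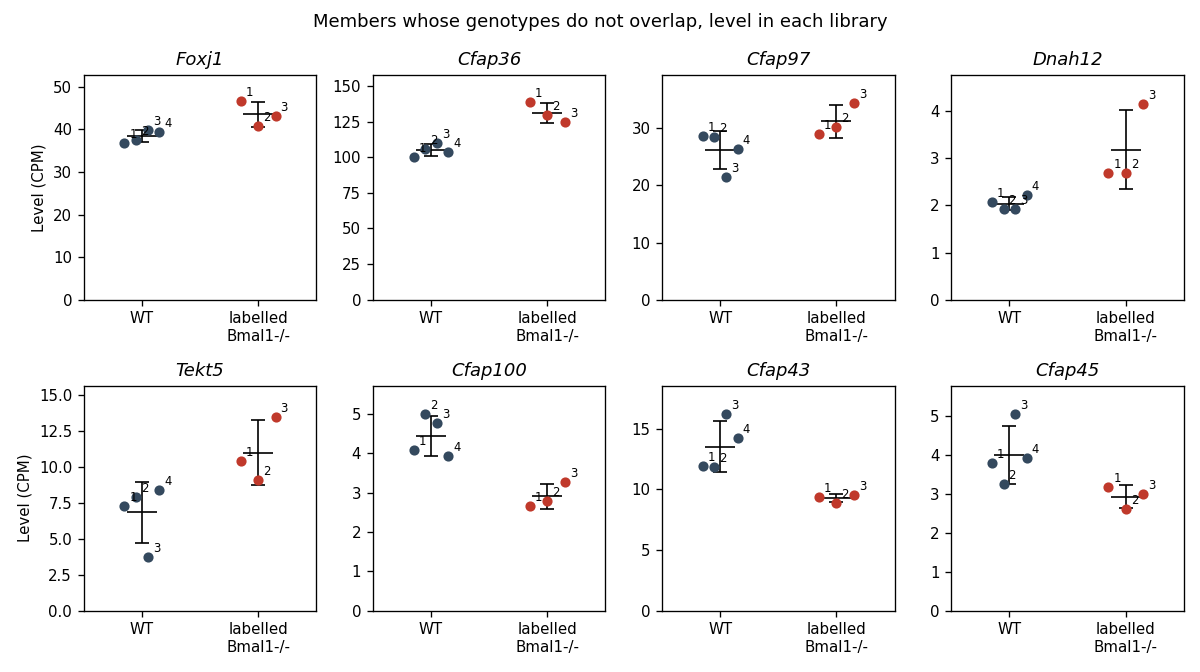
Level in CPM (vertical axis, from 0) of the 8 members whose genotypes do not overlap, with 1 numbered point per library, a horizontal dash at the group mean and bars of 1 SD (WT n = 4, labelled *Bmal1*-/- n = 3). *Cfap36* sits at 125 to 139 against 99.9 to 110.0 CPM, and WT replicate 3 is the lowest point of *Tekt5* at 3.74 CPM and the highest of *Cfap43* at 16.2 CPM.

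Outer arm dynein heavy chains, which provide most of the beat's power, had intervals that included 0. Of 5 members, 4 had a fold change above 0, and the median was 0.10 on the log2 scale, but -0.03 with 2 above 0 when the trend over GC content and exon length was removed, as *Dnah5* and *Dnah9* turned below 0. *Dnah5* was at 4.98, 5.18 and 5.63 CPM in libraries labelled *Bmal1*-/- and at 4.77, 5.71, 4.72 and 4.41 CPM in WT. *Dnah9* was at 4.80, 4.36 and 6.47 against 5.33, 5.37, 4.24 and 5.27 CPM. Genotypes of both overlapped, with log2 fold changes of 0.10 (95% interval -0.19 to 0.40) and 0.04 (-0.35 to 0.44). *Dnah11*, at 3.43, 2.88 and 4.14 against 2.50, 2.83, 2.95 and 2.82 CPM, differed by 0.33 (-0.04 to 0.69, adjusted p = 0.273, edgeR), with *Bmal1*-/- replicate 2 inside the WT range. *Dnah8* and *Dnah17*, known chiefly from sperm flagella, stayed under 1 CPM in every library, and *Dnah8* held the lowest value of its 7 libraries, 0.305 CPM, in *Bmal1*-/- replicate 3.

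Inner arm dynein heavy chains, which shape the waveform, held 2 of the 3 members with the largest positive fold changes. Of 10 members, 9 were above 0, with a median of 0.22. With the trend over GC content and exon length removed the median was 0.10, and 9 were above 0. *Dnah14* was at 2.26, 2.46 and 3.58 CPM in libraries labelled *Bmal1*-/- and at 1.76, 1.23, 1.27 and 2.27 CPM in WT. Its genotypes overlapped, since WT replicate 4 lay just above *Bmal1*-/- replicate 1, and the log2 fold change of 0.76 (SE 0.27, 95% interval 0.12 to 1.40) did not pass (adjusted p = 0.192, edgeR). *Dnah12* was at 2.69, 2.69 and 4.14 CPM against 2.07, 1.93, 1.92 and 2.22 CPM. Here the genotypes did not overlap, and *Bmal1*-/- replicate 3 stood far above the other libraries. The log2 fold change was 0.64 (SE 0.19, 0.20 to 1.09), with adjusted p = 0.144 from edgeR and 0.0482 from DESeq2, and it was 0.40 without *Bmal1*-/- replicate 3.

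Near-identical paralogs *Dnah7a*, *Dnah7b* and *Dnah7c* are all on chromosome 1, the last pair side by side, and can share reads, so their split is uncertain. *Dnah7b* was the most abundant, at 10.5 to 11.8 CPM in libraries labelled *Bmal1*-/- and 6.74 to 11 CPM in WT, where WT replicate 3 was the low value. *Dnah7c* was at 1.63, 1.44 and 1.55 CPM against 1.05, 1.57, 0.824 and 1.29 CPM, with WT replicate 3 again lowest, and its log2 fold change was 0.38 (-0.16 to 0.93, adjusted p = 0.352, edgeR), or 0.24 without that library. Fold changes of the other inner arm chains, *Dnah1*, *Dnah2*, *Dnah3*, *Dnah6* and *Dnah10*, lay between -0.01 for *Dnah2* and 0.22 for *Dnah1* and *Dnah3*, all with overlapping genotypes.

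The lowest fold change of all members was found among the proteins that tether or tune the inner arms. *Cfap100* (ENSMUSG00000048794, chromosome 6, 90403479 to 90428797), a subunit of the complex that modifies inner arms, was at 2.67, 2.79 and 3.27 CPM in libraries labelled *Bmal1*-/- and at 4.08, 4.99, 4.77 and 3.93 CPM in WT. Each WT library was above each library labelled *Bmal1*-/-, and the fold change stayed between -0.71 and -0.55 with each library left out in turn. The log2 fold change was -0.61 (SE 0.15, 95% interval -0.95 to -0.27), with adjusted p = 0.0936 from edgeR and 0.0063 from DESeq2. *Cfap73*, its partner in that complex, was at 0.330 to 0.533 CPM against 0.300 to 0.459 CPM with a log2 fold change of 0.11 (95% interval -0.53 to 0.74).

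*Cfap43* (ENSMUSG00000044948, chromosome 19, 47736857 to 47919287) encodes a part of the tether that holds an inner arm to the doublet. It was at 9.35, 8.89 and 9.57 CPM in libraries labelled *Bmal1*-/- and at 11.9, 11.8, 16.2 and 14.2 CPM in WT. The 3 libraries labelled *Bmal1*-/- were close to each other and below every WT library, and the WT libraries spread upward to replicate 3. Its log2 fold change of -0.54 (SE 0.13, -0.85 to -0.24) had adjusted p = 0.0942 from edgeR and 0.00747 from DESeq2. *Cfap44*, which works with *Cfap43* in the same tether, was at 8.67, 7.50 and 9.16 against 7.17, 6.40, 6.99 and 8.32 CPM, a log2 fold change of 0.23 (-0.07 to 0.52) with overlapping genotypes. In the annotation *Cfap43* shares exon sequence with *Itprip* on the same strand and *Cfap100* with *Zxdc* on the other. The strand setting of the counting is not given in the sources used here, and what such neighbours add to these counts was not tested. Of the 5 genes of this group, 3 were above 0 and 2 below.

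Dynein arm assembly was represented by *Cfap298* and *Cfap300*, cytoplasmic factors needed to build the arms. *Cfap298* was at 17.3, 16.9 and 17.7 CPM in libraries labelled *Bmal1*-/- and at 17.7, 16.1, 18.6 and 16.8 CPM in WT. All 7 libraries lay within this narrow range, and the 95% interval of the log2 fold change, -0.18 to 0.18, was among the tightest of the members. *Cfap300*, at 8.08 to 8.68 CPM against 6.42 to 8.37 CPM, had a log2 fold change of 0.20 (-0.09 to 0.48).

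Radial spoke genes had a median of -0.04 on the log2 scale, and 7 of 9 were below 0. With the trend over GC content and exon length removed the median turned to 0.04 and 6 of 9 were above 0. *Rsph1*, which encodes a spoke head protein, was at 3.74, 3.74 and 4.57 CPM in libraries labelled *Bmal1*-/- and at 5.61, 3.93, 7.19 and 5.22 CPM in WT. Genotypes overlapped through WT replicate 2, and the log2 fold change was -0.45 (SE 0.21, 95% interval -0.94 to 0.04, adjusted p = 0.264, edgeR). The other head proteins *Rsph4a* and *Rsph9* had log2 fold changes of 0.13 (-0.34 to 0.60) and -0.08 (-0.34 to 0.19), and all 3 intervals included 0. *Cfap206*, which docks a spoke to the doublet, was at 1.07, 0.905 and 1.80 against 2.37, 2.03, 1.75 and 1.31 CPM, a log2 fold change of -0.57 (SE 0.30, -1.28 to 0.14, adjusted p = 0.307, edgeR). Its overlap came from *Bmal1*-/- replicate 3, which lay above WT replicates 3 and 4. The fold change was -0.92 without *Bmal1*-/- replicate 3 and -0.38 without *Bmal1*-/- replicate 2. *Rsph3a* and *Rsph3b*, near-identical copies on chromosome 17 that can share reads, both had a log2 fold change of -0.04, or 0.04 with that trend removed.

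Central apparatus genes were all above 0, with a median log2 fold change of 0.26 over 6 members, and genotypes overlapped for each of them. *Cfap54* was at 5.08, 5.94 and 6.85 CPM in libraries labelled *Bmal1*-/- and at 5.33, 4.47, 4.24 and 5.37 CPM in WT. *Cfap46* was at 6.20, 5.94 and 8.35 against 6.58, 5.68, 3.49 and 6.71 CPM. For both, as for *Cfap65*, *Cfap69* and *Cfap74*, *Bmal1*-/- replicate 3 was the highest of the 7 libraries and WT replicate 3 the lowest. The log2 fold changes were 0.30 (-0.06 to 0.65) for *Cfap54* and 0.28 (-0.29 to 0.85) for *Cfap46*. *Cfap221* was sparse, at 0.356, 0.395 and 0.406 against 0.204, 0.180, 0.150 and 0.530 CPM. Its WT replicate 4 lay above all other libraries, and the log2 fold change was 0.53 with a 95% interval from -0.52 to 1.58. It was 1.10 without that library and 0.33 without WT replicate 3.

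The nexin-dynein regulatory complex, which links neighbouring doublets, was represented by 3 genes, all above 0 with overlapping genotypes. *Drc1* was at 5.57, 4.73 and 6.70 CPM in libraries labelled *Bmal1*-/- and at 4.69, 4.94, 3.84 and 4.39 CPM in WT, with *Bmal1*-/- replicate 2 inside the WT range. Its log2 fold change was 0.34 (SE 0.16, 95% interval -0.02 to 0.71, adjusted p = 0.255, edgeR), beside 0.26 for *Drc3* and 0.19 for *Drc7*.

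Tektins, filament proteins inside the doublets, had 3 of 4 fold changes above 0 and a median of 0.12 on the log2 scale. *Tekt5* was at 10.4, 9.08 and 13.5 CPM in libraries labelled *Bmal1*-/- and at 7.29, 7.94, 3.74 and 8.40 CPM in WT. Genotypes did not overlap, and the extremes were *Bmal1*-/- replicate 3 and WT replicate 3. Its log2 fold change was 0.68 (SE 0.28, 95% interval 0.03 to 1.34, adjusted p = 0.229, edgeR), with 0.48 when WT replicate 3 was left out and 0.51 without *Bmal1*-/- replicate 3. *Tekt1*, at 2.11, 2.16 and 2.49 against 1.86, 2.11, 2.17 and 1.99 CPM, differed by 0.15 (-0.17 to 0.47). *Tekt2*, at 3.05, 3.18 and 2.84 against 3.21, 2.42, 4.02 and 2.85 CPM, differed by -0.05 (-0.49 to 0.39), and *Tekt4* by 0.10 (-0.28 to 0.48).

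Other proteins of the doublet's inner wall gave a median of 0.08 over 7 members. *Cfap45* was at 3.18, 2.60 and 2.99 CPM in libraries labelled *Bmal1*-/- and at 3.80, 3.24, 5.04 and 3.91 CPM in WT. Genotypes just failed to overlap, 3.18 against 3.24 CPM, and WT replicate 3 was the highest. The log2 fold change was -0.45 (SE 0.18, 95% interval -0.87 to -0.03, adjusted p = 0.217, edgeR). *Cfap52*, a neighbour of *Cfap45* in the wall, had a log2 fold change of -0.27 (-0.69 to 0.16) and its WT replicate 3, at 3.30 CPM, was also the highest library. *Cfap20*, which seals the inner junction of the doublet, was at 27.2, 26.1 and 28.2 CPM against 25.7, 27.3, 28.8 and 25.8 CPM. Its log2 fold change of 0.01 had the interval -0.15 to 0.18, so its level was as steady as that of *Cfap298*. *Cfap126* was at 5.67, 5.01 and 5.76 against 4.44, 4.52, 7.04 and 4.41 CPM, where WT replicate 3 alone stood above the libraries labelled *Bmal1*-/-.

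The member nearest the threshold was *Cfap36* (ENSMUSG00000020462, chromosome 11, 29221532 to 29247409), which encodes a binding partner of the ciliary GTPase ARL3 and was placed in no axonemal structure here. It was at 139, 130 and 125 CPM in libraries labelled *Bmal1*-/- and at 99.9, 106, 110 and 104 CPM in WT. Every library labelled *Bmal1*-/- was above every WT library by at least 125 against 110 CPM, and the spread within each genotype was small, 131 ± 7.14 (SD, n = 3) against 105 ± 4.29 CPM (SD, n = 4). The log2 fold change was 0.32 (SE 0.06, 95% interval 0.17 to 0.47), a 1.25-fold higher level, with adjusted p = 0.0595 from edgeR and 9.77e-05 from DESeq2. It passed in edgeR without WT replicate 3 (0.34, adjusted p = 0.0236), where 4.66% of all genes passed. It also passed with the trend over GC content and exon length removed from each library (0.42, adjusted p = 0.0247), an alternative chosen after seeing the data, where 1.78% of all genes passed. No other member passed in either of these fits.

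*Cfap97* was at 29.0, 30.2 and 34.5 CPM in libraries labelled *Bmal1*-/- and at 28.7, 28.4, 21.4 and 26.4 CPM in WT. The genotypes were nearly in contact, 29.0 against 28.7 CPM, and the distance came from the high *Bmal1*-/- replicate 3 and the low WT replicate 3. Its log2 fold change was 0.25 (SE 0.12, 95% interval -0.03 to 0.53, adjusted p = 0.269, edgeR), or 0.16 without WT replicate 3. *Cfap157*, at 0.229, 0.325 and 0.381 against 0.485, 0.566, 0.300 and 0.504 CPM, had the lowest fold change among the remaining *Cfap* genes, -0.57 (SE 0.30, -1.28 to 0.14, adjusted p = 0.308, edgeR), with WT replicate 3 inside the range of the libraries labelled *Bmal1*-/-. The other 5, *Cfap299*, *Cfap97d2*, *Cfap99*, *Cfap58* and *Cfap70*, lay between 0.06 and 0.31.

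Per length, members differed far more from each other than between genotypes. On the scale of CPM per kilobase of annotated exon, the mean level over the 7 libraries was 42.3 for *Cfap36*, 15.5 for *Foxj1*, 10.9 for *Cfap298*, 6.07 for *Cfap20* and 5.50 for *Cfap97*. These 5 lead the order, and 20 of the 60 members were above 1 on that scale. None of the 5 is a structural protein of the arms, spokes or central apparatus. Next in order were *Tekt5* at 4.77, *Rsph9* at 3.75 and *Rsph1* at 3.54. Dynein heavy chains were low per length, from 0.509 for *Dnah7b* down to 0.0259 for *Dnah17*, which is also the lowest of all members. In CPM, 47 of the 60 members were above 1.

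**Figure D3:**
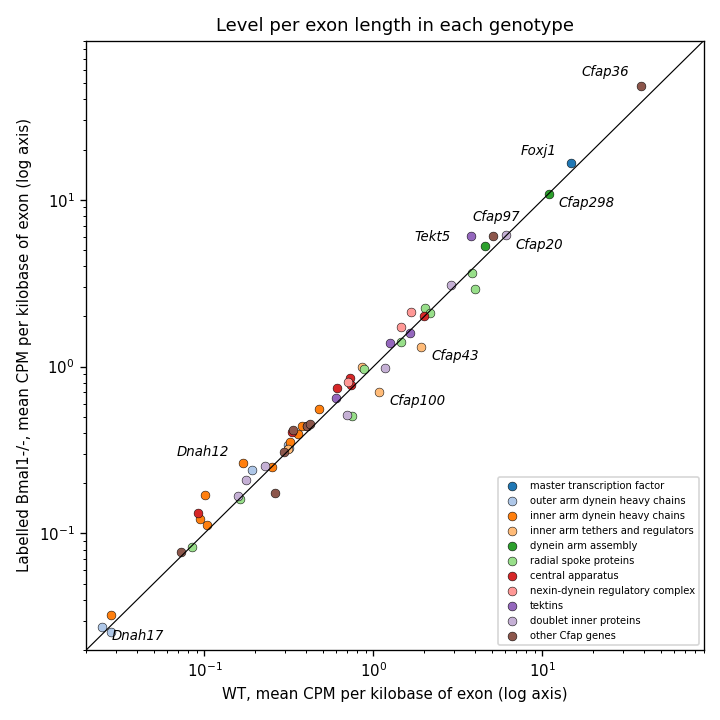
Mean level of each of the 60 members per kilobase of exon in WT (horizontal) and in the libraries labelled *Bmal1*-/- (vertical), both on log axes, coloured by role, with the line of equal level. Members span from 0.0259 (*Dnah17*) to 42.3 (*Cfap36*) in the mean of all libraries while staying close to the line, *Cfap43* and *Cfap100* below it and *Tekt5* and *Dnah12* above it.

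Summed over the 60 members, the level was 463.8, 442.5 and 493.0 CPM in libraries labelled *Bmal1*-/- and 420.4, 414.3, 408.9 and 424.6 CPM in WT. These sums did not overlap. Without *Cfap36* they were 325.1, 312.5 and 368.4 CPM against 320.5, 308.2, 298.7 and 320.9 CPM, and did overlap, so the separation of the sums rested on that 1 gene.

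*Bmal1*-/- replicate 3 and WT replicate 3 were often the extreme libraries of a member. *Bmal1*-/- replicate 3 was the highest of the 7 for 29 of 60 members (48.3%), beside 26.5% of all genes tested, and its median deviation from the mean of the libraries was 0.23 on the log2 scale. WT replicate 3 was the lowest for 26 members (43.3%), beside 35.9% of all genes, with a median deviation of -0.25. It was also the highest for 12 members (20%, beside 33.9%), *Cfap43*, *Cfap45*, *Rsph1* and *Cfap126* among them. Of the 45 members with a fold change above 0, 27 had their lowest WT value in WT replicate 3, and of the 15 below 0, 8 had their highest WT value there.

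**Figure D4:**
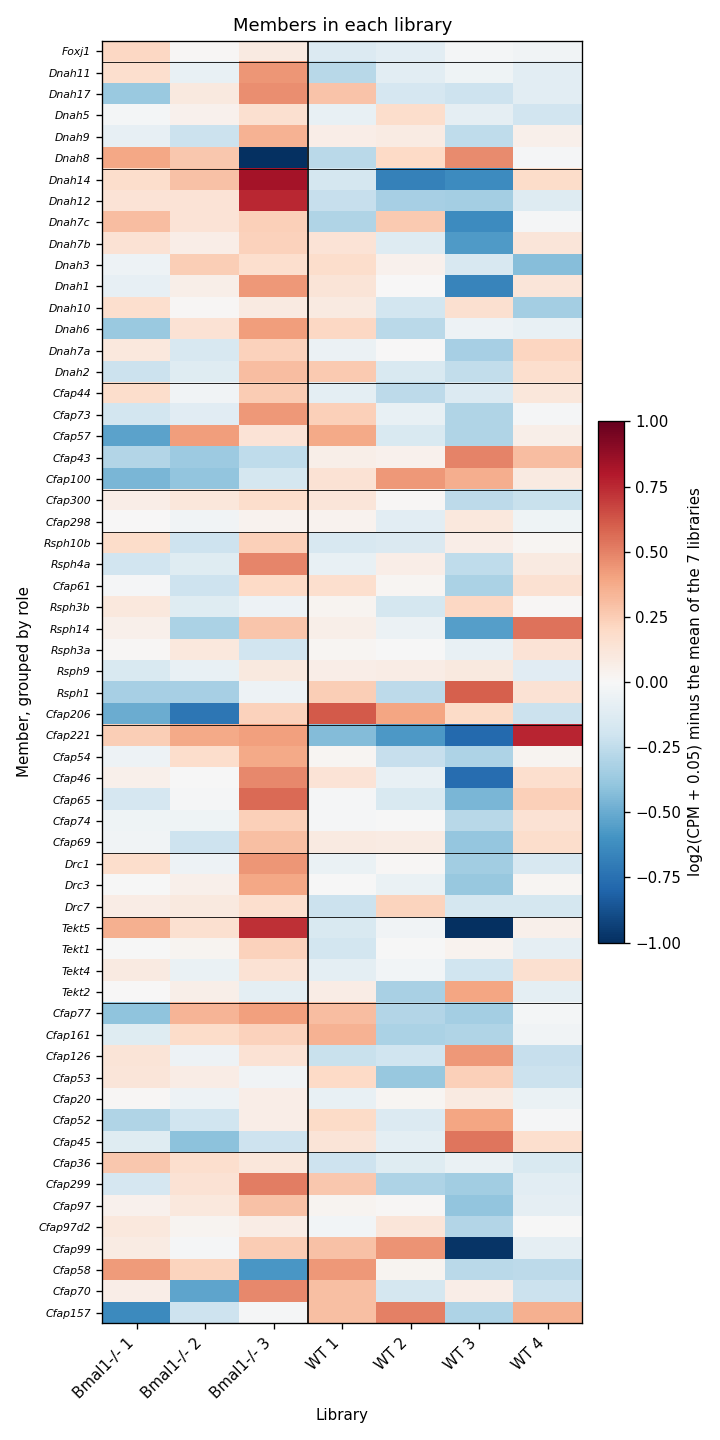
Deviation of log2(CPM + 0.05) from the mean of the 7 libraries for each of the 60 members (rows, grouped by role in the order of the fold change plot) in each library (columns), from -1 in blue to 1 in red. The column of *Bmal1*-/- replicate 3 is mostly red, with a median of 0.23, and that of WT replicate 3 mostly blue, with a median of -0.25, while the other columns have medians from -0.07 to 0.06.

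Long members carried more of this pattern. Among the 17 members with at least 10000 bases of exon, among them all 15 dynein heavy chains, *Bmal1*-/- replicate 3 was highest for 12 and WT replicate 3 lowest for 9. Over all genes tested with exons that long, the median deviation of WT replicate 3 was -0.21 and that of *Bmal1*-/- replicate 3 was 0.11, beside 0.02 and -0.02 for shorter genes. The median log2 fold change of the long members was 0.15, and 0.03 with the trend over GC content and length removed, while that of the 43 shorter members was 0.10 and 0.19. What length contributes to the fold changes of single dyneins was not tested.

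Neuron markers differed between the same libraries. Their summed level was 2941 CPM in WT replicate 3, 4971 to 6719 CPM in the other WT libraries and 6850 to 8087 CPM in libraries labelled *Bmal1*-/-, highest in replicate 3. All 15 neuron markers had a fold change above 0 (median 0.42) and none passed edgeR's test. At an unadjusted p under 0.05 there were 3 (20% against 20.9% of all genes), and 1 passed DESeq2 (6.67% against 9.62%). With no overlap 6 were higher (40% against 13.4%) and 0 lower (against 13.5%). Macrophage and microglia markers were highest in WT replicate 3, at 13570 CPM against 6201 to 9266 CPM in the other libraries. Of these 15 markers 2 had a fold change above 0 (median -0.17) and none passed in edgeR or DESeq2. At an unadjusted p under 0.05, 1 was lower (6.67% against 20.9% of all genes). Their part in the members' values was not tested.

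**Figure D5:**
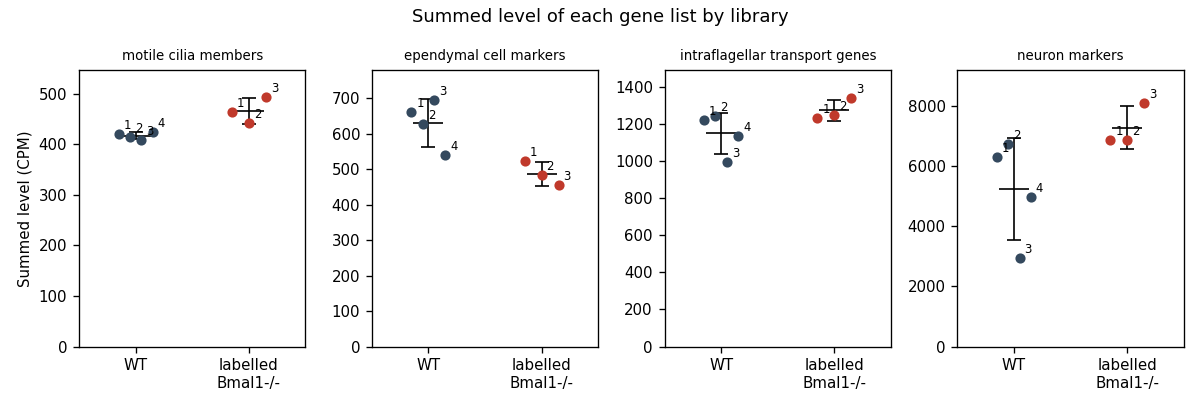
Summed level in CPM (vertical axes, from 0, a scale for each panel) of the 60 members, of the ependymal, intraflagellar transport and neuron lists in each library, with 1 numbered point per library, a dash at the mean and bars of 1 SD (WT n = 4, labelled *Bmal1*-/- n = 3). Ependymal markers lie lower in the libraries labelled *Bmal1*-/- (456.5 to 523.9 CPM) than in WT (539.7 to 694.5 CPM), with most of the level from *Cd24a*, *Tm4sf1* and *Pltp*. The members lie higher, a separation that rests on *Cfap36*. WT replicate 3 is the lowest point for neuron markers at 2941 CPM.

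Of 17 tested ependymal markers 13 had a fold change below 0, with a median of -0.24. The median was -0.07 when the trend over GC content and exon length was removed. Summed levels were 456.5 to 523.9 CPM in libraries labelled *Bmal1*-/- against 539.7 to 694.5 CPM in WT. Most of these sums came from *Cd24a*, *Tm4sf1* and *Pltp*, with means of 176, 88.4 and 79.5 against 207, 176 and 104 CPM. *Sox2* and *Foxj1*, next in level, had means of 54.2 and 43.5 against 52.4 and 38.5 CPM. Of the 17 markers 1 fell in edgeR (5.88% against 1.57% of all genes). This was *Pltp*, a phospholipid transfer protein, which was at 79.1, 81.7 and 77.8 against 103, 105, 107 and 101 CPM. The log2 fold change was -0.39 (SE 0.05, adjusted p = 0.0159, edgeR). Leaving out any 1 library labelled *Bmal1*-/- ended this call (adjusted p from 0.052 to 0.118, edgeR), as did leaving out WT replicate 1 or 2 (0.0599 and 0.0516), while the fold change stayed between -0.41 and -0.38. *Tm4sf1*, a tetraspanin relative that vessels also express, was at 98.1, 97.0 and 70.1 against 145, 143, 257 and 159 CPM (log2 fold change -0.99, adjusted p = 0.0953 from edgeR and 0.00215 from DESeq2). *Cd24a* and *Sox2* overlapped between genotypes, with log2 fold changes of -0.24 and 0.05. The restricted markers *Ccdc153* and *Tmem212*, at 0.864 to 1.57 against 1.22 to 2.09 CPM and 0.483 to 1.32 against 0.799 to 1.16 CPM, overlapped too. *Rarres2* and the sparse *Tctex1d4* were lower with no overlap (log2 fold changes -0.46 and -0.74, adjusted p = 0.171 and 0.219, edgeR). Of the list, 4 markers were lower with no overlap (23.5% against 13.5% of all genes) and *Foxj1* was higher (5.88% against 13.4%). Unadjusted p was under 0.05 for 4 lower markers and 1 higher (29.4% against 20.9%). 2 of the list's genes, *Foxj1* and *Rsph1*, are also members.

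Motile cilia genes outside the symbol rule, a list of 72 tested dynein light and intermediate chains, assembly factors and other axonemal genes, centred on a log2 fold change of 0.05, and 42 were above 0. In edgeR 1 of them rose and none fell (1.39% against 1.57% of all genes). *Ccdc60*, a coiled-coil gene of little known role, was at 7.17, 6.52 and 6.67 CPM in libraries labelled *Bmal1*-/- and at 1.61, 1.85, 1.55 and 1.87 CPM in WT. Genotypes were far apart with little spread, and the log2 fold change was 1.98 (SE 0.12, adjusted p = 0.000565, edgeR), larger than that of any of the 60 members. With DESeq2 *Mns1*, which encodes a protein inside the doublets, passed as well, at 6.40, 5.96 and 5.08 against 10.1, 9.23, 13.5 and 9.71 CPM (log2 fold change -0.87, adjusted p = 0.0551 from edgeR and 0.000131 from DESeq2). The share of the list that passed DESeq2 was 2.78%, against 9.62% of all genes.

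Regulators of multiciliation did not pass in edgeR, 0 of 22 tested. At an unadjusted p under 0.05 there were 1 higher and 3 lower (18.2% against 20.9% of all genes). With DESeq2 there were 1 higher and 1 lower (9.09% against 9.62%), both shares near those of all genes. With no overlap 1 was higher (4.55% against 13.4%) and 4 lower (18.2% against 13.5%). *Rfx4*, which encodes an RFX factor of neural tissue, was at 51.7, 48.0 and 47.2 against 33.5, 36.6, 33.6 and 40.3 CPM, with no overlap (log2 fold change 0.44, adjusted p = 0.0521 from edgeR and 0.000109 from DESeq2). *Plk4*, the kinase that starts centriole duplication in dividing cells too, was at 8.95, 8.52 and 7.71 against 12.5, 11.3, 16.4 and 13 CPM (log2 fold change -0.66, adjusted p = 0.0749 from edgeR and 0.00173 from DESeq2). Genes that start the program in new multiciliated cells were sparse, with *Mcidas* at 0 to 5 counts and *Gmnc* at 10 to 18 counts per library. Intraflagellar transport genes, which build primary and motile cilia alike, gave 0 of 41 in edgeR. At an unadjusted p under 0.05 there was 1 (2.44% against 20.9% of all genes), and 1 with DESeq2 (2.44% against 9.62%). With no overlap 7 were higher (17.1% against 13.4%) and 0 lower (against 13.5%). Of the 41, 31 were above 0, with a median of 0.07. Their sum was also lowest in WT replicate 3, at 997.7 CPM.

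Shares of calls in other cell type lists lay above or below those of all genes tested, depending on the list and the rule. None of 13 astrocyte markers passed in edgeR, but 6 had an unadjusted p under 0.05 (46.2% against 20.9% of all genes), 4 higher and 2 lower. With DESeq2 1 astrocyte marker passed each way (15.4% against 9.62%), and 7 were higher with no overlap (53.8% against 13.4%). None of 12 oligodendrocyte markers passed in edgeR. At an unadjusted p under 0.05 there were 1 higher and 1 lower (16.7% against 20.9%), and 1 was higher with DESeq2 (8.33% against 9.62%). Of 12 fibroblast markers 10 were below 0 (median -0.81), 1 was called in edgeR (8.33% against 1.57%) and 3 of the 10 to which DESeq2 gave an adjusted p were lower (30% against 9.62%). The 1 called in edgeR, *Fmod*, a collagen-binding proteoglycan, fell to 9.89, 13.9 and 9.26 CPM, against 40.8, 46.7, 32.8 and 42.3 CPM in WT (log2 fold change -1.88, adjusted p = 0.00456, edgeR). Among 7 tested choroid plexus markers 1 was called in edgeR (14.3% against 1.57%). This was *Slc4a5*, a bicarbonate transporter, which rose to 5.85, 6.22 and 6.57 CPM, against 1.86, 2.18, 1.07 and 2.90 CPM in WT (log2 fold change 1.63, adjusted p = 0.0466, edgeR). The call ended on leaving out any 1 of 5 libraries (all 3 labelled *Bmal1*-/- and WT replicates 1 and 2), with fold changes of 1.59 to 1.67. What these cell types add to the members' values was not tested.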

How the data were processed

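RNA of 7 contused T9 segments was measured by RNASeq, 3 labelled *Bmal1*-/- and 4 WT, grouped by their labels. Per the labels and methods, the authors enriched poly-A RNA, prepared strand-marked libraries, checked reads with FastQC 0.10.1, aligned them to GRCm38 with Tophat and counted reads per gene with HTSeq 0.10.0 (versions from the submitters' processing notes). The deposited values are raw counts with no normalization. Annotation release and strand setting are not given in the sources used here.

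GENCODE mouse release 21 gave symbols, exons and lengths. Genes sharing exon sequence with an opposite-strand gene include 24 members, and 3 share it on the same strand. Genes were filtered with filterByExpr, scaled with TMM and tested with edgeR 4.0.16 (quasi-likelihood, Benjamini-Hochberg over 15743 genes, threshold 0.05, limma 3.58.1, R 4.3.3) on genotype. Depth was 38529644 to 44096737 counts, and spread between mice (common dispersion 0.0342) limits all but the sparse members. Mice are separate animals. Alternatives were DESeq2 1.42.0, RLE and upper-quartile normalization, other filters, sex as a covariate, a replicate block and each library left out, and, chosen after seeing the data, taking out each library's trend over GC content and length (loess, span 0.5). The methods were tested on simulated data. Named were *Foxj1*, the 5 highest and 5 lowest members by fold change, the 5 highest per length, those beside the count limit and called genes of the other lists. Other members and genes were named after their values were seen. Members and gene lists were chosen with earlier results of these data known. Plots used matplotlib 3.10.9 and python 3.11.15.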

Additional observations from a re-analysis of the deposited data

Results flagged for a closer look

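Outlying libraries were looked for among the 4 WT values of each member and each list by Dixon's ratio of gap to range, at its 95% limit for 4 samples. Chance flags about 1 in 20 such groups, and 7 of 85 were flagged, 5 of them members. *Cfap126* was at 7.04 CPM in WT replicate 3 against 4.41 to 4.52 CPM in the other WT libraries, and *Dnah9* was at 4.24 CPM in the same library against 5.27 to 5.37 CPM. *Cfap221* was at 0.530 CPM in WT replicate 4 against 0.150 to 0.204 CPM, and *Rsph9* was at 5.55 CPM there against 6.30 to 6.44 CPM. *Drc7* was at 2.60 CPM in WT replicate 2 against 1.91 to 1.97 CPM. The summed level of the doublet inner wall genes was 45.6 CPM in WT replicate 3 against 38.2 to 38.9 CPM. That of the members with under 10000 bases of exon was 367 CPM in WT replicate 4 against 360 to 361 CPM, a gap small beside the level.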

How the results depend on the processing

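Over all genes 247 passed in edgeR, 1513 with DESeq2, 0 with the replicate block and 57 to 730 with 1 library left out, the most without WT replicate 3. Of members, 0 passed in edgeR, 4 with DESeq2, 0 to 1 with 1 library left out (1 without WT replicate 3) and 1 with the GC content and length trend removed.

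The median fold change of the members kept its sign throughout and was 0.05 to 0.16 with 1 library left out. Other motile cilia genes gave 2 calls with DESeq2, 0 with the block and 1 to 2 with 1 library left out. Ependymal markers gave 2 calls with DESeq2, 0 with the block and 0 to 2 with 1 library left out. *Cfap298*, *Cfap20*, *Rsph14* and *Cfap58*, near 0, changed sign. *Cfap298* was at -0.029 with upper-quartile normalization, -0.00036 with a mean count of at least 10, -0.012 with the block and -0.037 to 0.036 with 1 library left out. *Cfap20* was at -0.015 with upper-quartile normalization, -0.0039 with the block and -0.016 to 0.048 with 1 library left out. *Rsph14* was at 0.0026 with sex as a covariate, 0.22 with the block, 0.046 with the GC content and length trend removed and -0.22 to 0.14 with 1 library left out. *Cfap58* was at -0.060 with sex as a covariate, -0.025 with the block and -0.15 to 0.37 with 1 library left out. No other member named by the rule changed sign.

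Same-numbered libraries did not pair, since the correlations of their deviations were -0.174, 0.183 and -0.295. They were of the same sex, so the replicate block takes in sex as well as a shared number. WT replicate 4 has no partner, so with the block it adds nothing to the genotype difference. With the block no gene passed, and the calls of *Ccdc60* (adjusted p = 0.115, edgeR), *Pltp* (0.346), *Slc4a5* (0.242) and *Fmod* (0.0715) were lost, with log2 fold changes of 2.02, -0.40, 1.91 and -1.87. With sex as a covariate *Slc4a5* was lost as well (0.0868, edgeR). The causes were not tested. For the sparse members depth limits what can be seen, and 13 of 60 had a mean at or under 1 CPM.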
